A study of Mus musculus with 2 samples.

Results

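Long noncoding RNAs are transcripts that are spliced and processed much like messenger RNA but are not known to be translated, and transcribed pseudogenes are copies of genes that have lost their original protein. In the deposited table they are the rows with a RefSeq accession of the noncoding series (NR_) whose gene name does not mark a microRNA, small nucleolar, Cajal body, spliceosomal or Y RNA and has no coding (NM_) row. This rule found 2438 of 31295 rows, which carry 2104 of 23477 gene names. Of these, 87 have a name that ends in -ps, the mouse suffix for a pseudogene, and the other 2017, mostly long noncoding RNAs, are called lncRNA names below. Each name is described by its row with the most reads.

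The series holds 1 group of 2 samples, eosinophils isolated with a flow cytometer after the colons of naive wild-type C57BL6 mice had been digested with enzymes. The mice's age, the sort gate and whether animals were pooled are not stated in the labels. CEL-Seq, which copies RNA from its poly(A) tail and reads a tag near the 3′ end, was run as 3 technical libraries per sample. The table holds 1 read total and 1 RPKM (a read count scaled for transcript length and library depth) per row, so no value per sample, SD or test between samples is given, and the spread between the 2 samples is unknown. Read totals were multiples of a sixth, as a mean over 6 libraries would be, and are given below as reads over the 6 libraries. Intervals in parentheses are exact 95% Poisson intervals of those reads. They cover counting error only, take reads as independent and may be too narrow. RPM is a read count scaled for depth alone, over the 7692119 reads on genes.

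Some lncRNAs, such as Malat1 and Neat1, stay in the nucleus and organise speckles and paraspeckles. Others are host genes whose introns hold small nucleolar RNAs, while the spliced exons are discarded or decay quickly, and still others are known from immune cells, such as Morrbid, which limits the death gene Bcl2l11 in short-lived myeloid cells, eosinophils included. Because a poly(A) tag is what was counted, the 3′ end of a transcript bears directly on its value.

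The last 60 bases of the annotated transcript are therefore shown for the lncRNA names with the most reads, for a leading -ps name and for Gm14005 (Morrbid), all with an end within 10 bases of the row's end in GENCODE release M21 (GRCm38, the same assembly as mm10). Capitals mark the polyadenylation signals AATAAA and ATTAAA on the transcript's own strand; where 2 signals overlap they form 1 run of capitals.
Malat1, chr19:5795690-5795749, minus strand: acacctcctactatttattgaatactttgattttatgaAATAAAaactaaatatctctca
6530402F18Rik, chr2:29245107-29245166, minus strand: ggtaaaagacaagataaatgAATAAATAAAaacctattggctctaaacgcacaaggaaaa
Neat1, chr19:5842307-5842366, minus strand: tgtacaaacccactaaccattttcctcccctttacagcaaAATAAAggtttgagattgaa
2410006H16Rik, chr11:62604748-62604807, plus strand: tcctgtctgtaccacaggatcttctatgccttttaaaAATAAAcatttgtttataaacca
5430416N02Rik, chr5:100420842-100420901, minus strand: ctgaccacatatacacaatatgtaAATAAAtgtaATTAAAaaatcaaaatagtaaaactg
Gas5, chr1:161038480-161038539, plus strand: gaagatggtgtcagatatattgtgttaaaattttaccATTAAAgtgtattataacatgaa
0610012G03Rik, chr16:31947050-31947109, minus strand: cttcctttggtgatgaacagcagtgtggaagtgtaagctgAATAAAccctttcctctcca
Gm14005, chr2:128372106-128372165, minus strand: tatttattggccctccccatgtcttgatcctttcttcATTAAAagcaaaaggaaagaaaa
Slc2a4rg-ps, chr2:181387527-181387586, plus strand: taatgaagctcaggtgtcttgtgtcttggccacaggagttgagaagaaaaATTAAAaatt

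In the ends shown the last signal starts 22 bases before the end in Malat1, 20 in Neat1 and 23 in Gas5 and Gm14005. Over the set the last signal starts from 10 bases before the end in Slc2a4rg-ps to 36 in 6530402F18Rik. A -ps end without a signal was left out of the lines above, so that all those shown hold one is no result. Across the 1482 names with an end that could be checked, either signal was found in the last 50 bases of 66.7%, against 76.7% of 14250 coding genes. The share was 74.8% (175 of 234) for names with 10 reads or more, 69.3% (312 of 450) for names with 1 to 9 reads and 62.9% (502 of 798) for names without a read. Among coding genes it was 85.3% with 10 reads or more and 58.6% without a read. Of 40 checked -ps names, 20 held a signal. A match is a description of the letters, not of where a transcript was cut.

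Noncoding and pseudogene names were sparse in these libraries. A read was present for 1037 of 2104 (49.3%), against 69.0% of all genes in the table and 73.2% of 20584 coding genes. At least 10 reads were reached by 400 (19.01%, all genes 48.7%) and an RPKM of 1 by 212 (10.1%, all genes 31.0%). The names without a read numbered 1067; a count of 0 over the 6 libraries is read against a one-sided floor of 3 reads, or 0.390 RPM, which covers counting error only (the exact interval used for other values would reach 3.69 reads for a name such as Terc). Together the 2104 names held 76915 reads, 1.00% of the reads on genes. Among names with a read, the median was 6 reads and an RPKM of 0.207, against 41 reads and 0.815 for coding genes. The matched transcripts were also shorter, with a median length of 1262.5 bases against 2320 for coding genes, and RPKM divides by that length.

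**Figure D1:**
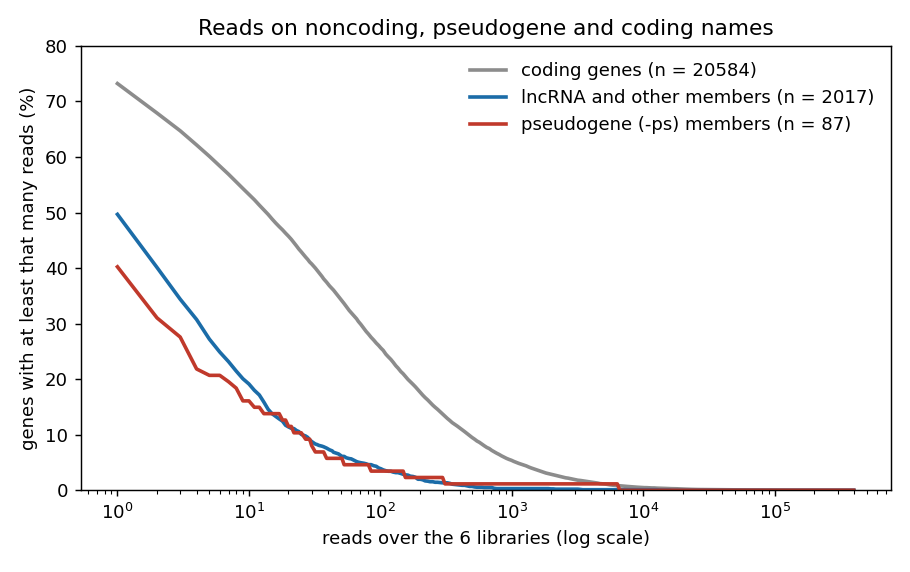
Share of names (y axis, percent) with at least the number of reads on the x axis (log scale, reads over the 6 libraries) for 20584 coding genes, 2017 lncRNA names and 87 -ps names. The lncRNA line starts at 49.7% and the -ps line at 40.2%, both below the coding line at 73.2%, and the step of the -ps line at its right end is Rplp2-ps1 alone.

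The reads were concentrated in few names. LOC100503496, Malat1 and Rplp2-ps1 held 46.7% of all member reads, the first 4 names in order held over 50% and the first 20 held 69.9%. At the other end, 637 names had 1 to 9 reads, 201 of them a single read.

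By class, 1002 of 2017 lncRNA names (49.7%) and 35 of 87 -ps names (40.2%) had a read. At 10 reads or more the shares were 19.1% and 16.1%, and where the RPKM reached 1 they were 10.2% and 8.05%. The median over names with a read was 6 reads in both classes, with an RPKM of 0.211 for lncRNA names and 0.126 for -ps names. These are counts of names, not of replicates, and no test of the difference was made. RefSeq types 1718 of the 2104 names as lncRNA, 301 as transcribed pseudogenes and 46 as protein coding, and 9 could not be matched. It types 218 names without the -ps suffix as transcribed pseudogenes; with these and similar names counted as pseudogenes, 129 of 305 (42.3%) had a read against 908 of 1799 others (50.5%).

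LOC100503496 had the most reads of any member, 16253, and ranked 61 among all genes of the table. Its RPKM was 535 (527 to 544). It lies on the plus strand of chromosome 11 from 109440078 to 109453359 (mm10), RefSeq now names it Gm45916, and its function is not described here. Its 3′ part covers the end of the coding gene Slc16a6, a monocarboxylate transporter family member on the minus strand: 18.9% of its span overlaps, including an annotated Slc16a6 exon in its last 500 bases. Slc16a6 itself had 738 reads. No label says whether counting used strand, so reads of these convergent genes cannot be told apart.

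Malat1, the abundant nuclear speckle RNA whose main 3′ end is made by RNase P and carries a triple helix in place of a poly(A) tail, had 13153 reads and an RPKM of 99.6 (97.9 to 101). It ranked 79 among all genes. It overlaps no coding row on chromosome 19 (5795690 to 5802671). Neat1, the paraspeckle scaffold beside it (chromosome 19, 5842302 to 5845478, the short form), had 1903 reads and an RPKM of 31.9 (30.5 to 33.4), and its nearest coding row, Frmd8, had 334 reads at 5496 bases. The 3 lncRNA names between them in reads are little characterised. 6530402F18Rik had 3401 reads (RPKM 41.4), 4933416M07Rik 3182 (RPKM 119) and F630111L10Rik 2084 (RPKM 15.8).

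Each of these 3 lies on a coding row. 6530402F18Rik shares strand and 37.1% of its span with the netrin gene Ntng2, which had no read. 4933416M07Rik lies wholly inside Rab11fip1, a vesicle-recycling gene on the opposite strand with 1448 reads. F630111L10Rik lies wholly inside Med12l, on the opposite strand, which had 7 reads. The coding gene had fewer reads than the noncoding name in all 3, but these names were taken for their many reads. Over all 550 opposite strand overlaps the noncoding name had more reads in 85 (15.5%). Whether counting used strand is not stated, so reads of the overlapping genes cannot be told apart.

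The next names had far fewer reads. Gm1821 had 734 reads and an RPKM of 64.7 at a row on chromosome 11 (62551504 to 62553206) that covers the coding gene Ubb, which makes ubiquitin and was given 19 reads. A second row of Gm1821 on chromosome 14 had 376 reads, and RefSeq now calls it Ubb-ps, so its reads and those of Ubb cannot be told apart. Rn45s, the ribosomal RNA precursor, had 726 reads (RPKM 6.25). Kcnq1ot1, an imprinted antisense transcript of the Kcnq1 locus, had 608 reads but an RPKM of 0.422 over its long span, and Kcnq1, on the opposite strand, had 184 reads. 2410006H16Rik had 713 reads and an RPKM of 96.7 (89.8 to 104). Etohd2 had 535 reads, and 1810026B05Rik (now Chaserr, which restrains the neighbouring chromatin remodeller gene Chd2) and E530011L22Rik had 504 each. The 3′ end of 1810026B05Rik overlaps Chd2 on the same strand over 10.5% of its span, and 100% of its searched words are also in Chd2, which had 1500 reads, so reads of the pair cannot be told apart.

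The list of 20 lncRNA names closed with 5430416N02Rik at 464 reads, Gas5 at 458, 0610012G03Rik at 442, AW011738 at 441, 4933431E20Rik at 414 and Dleu2 at 399. Of the 20 names, 8 overlap a coding row on the opposite strand only and 3 on the same strand. Without an overlap, 3 start head to head with a coding row, and 6 do none of these. The overlapping names Etohd2, E530011L22Rik and 4933431E20Rik also start head to head with a coding row. Ranked by RPKM, which divides by transcript length, 11 of the 20 were also among the first 20 lncRNA names.

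**Figure D2:**
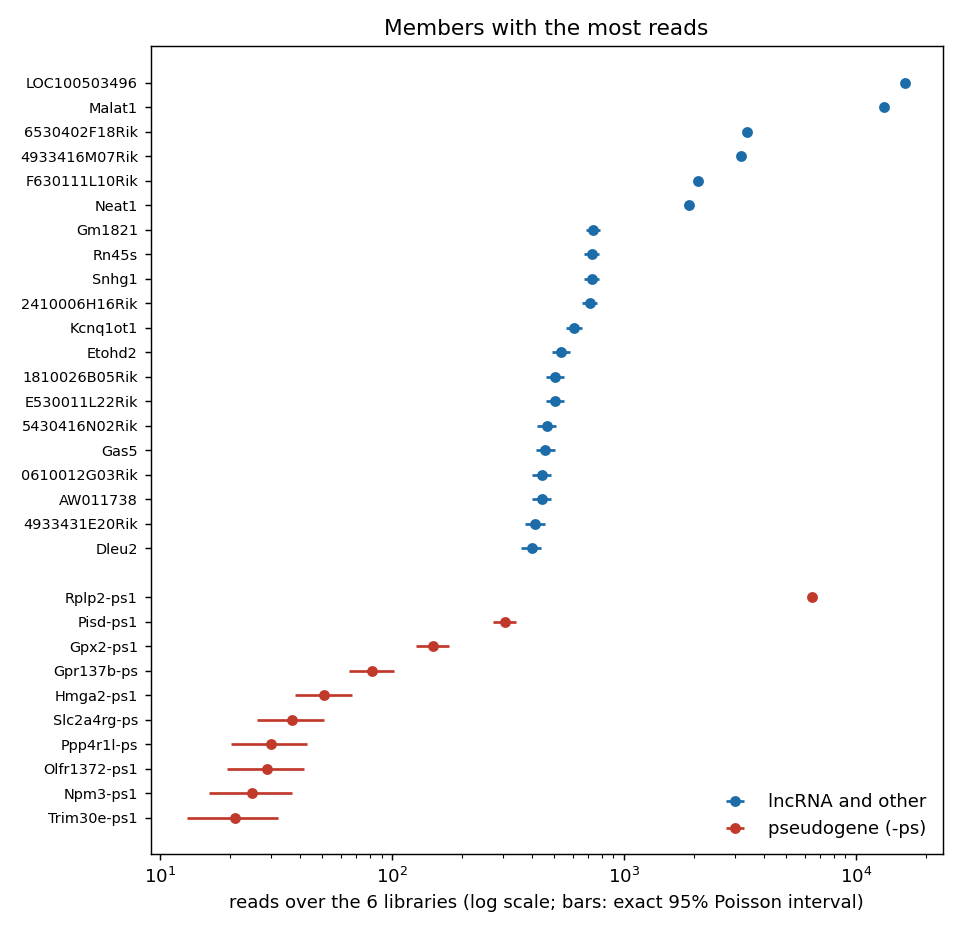
Reads over the 6 libraries (x axis, log scale; bars are exact 95% Poisson intervals) for the 20 lncRNA names and the 10 -ps names with the most reads. LOC100503496 at 16253 and Malat1 at 13153 stand above the rest, and among -ps names Rplp2-ps1 at 6483 stands far from Pisd-ps1 at 306.

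One name carried most of the pseudogene signal. Rplp2-ps1, a copy of the ribosomal stalk protein gene Rplp2, had 6483 reads, 88.4% of all -ps reads, and an RPKM of 463 (451 to 474). Rplp2 itself had 408 reads, and the sequence that Rplp2-ps1 shares with it could not be searched. Rplp2-ps1 lies wholly within Wdr89 on the same strand of chromosome 12 (75630925 to 75631749), and an annotated Wdr89 exon covers part of its last 500 bases; Wdr89, which encodes a WD-repeat protein, had 10116 reads. Reads of the pair cannot be told apart. Without Rplp2-ps1 the other 86 -ps names held 851 reads in all.

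Among these, Pisd-ps1 had 306 reads against 1162 for Pisd, the mitochondrial phosphatidylserine decarboxylase gene, and Gpx2-ps1 had 150 against 272 for Gpx2, a glutathione peroxidase of gut epithelium. Gpr137b-ps had 82 against 372 for Gpr137b, with which it shares 43.3% of the 35-base words in its last 500 bases. Hmga2-ps1 had 51 against 25 for Hmga2, a chromatin protein. Among these, 3 also lie on other coding rows, whose reads may be counted with theirs: Gpx2-ps1 wholly inside Pgm2l1 on the same strand (65 reads), Hmga2-ps1 wholly inside Sdccag8 on the opposite strand (100 reads), and the last 500 bases of Pisd-ps1 on an exon of Sfi1 on the opposite strand (52 reads). Slc2a4rg-ps had 37 reads, Ppp4r1l-ps 30, the olfactory receptor copy Olfr1372-ps1 29, Npm3-ps1 25 and Trim30e-ps1 21.

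A gene of the same name without the suffix was in the table for 34 of the 87 -ps names. The named gene had more reads in 26, equal reads in 5 (none in either for 4) and fewer in 3, which are Rplp2-ps1, Hmga2-ps1 and Mageb16-ps1; the last was named after its value of 3 reads, against 0 for Mageb16, was seen. In 14 pairs the named gene had a read and the -ps name had none. Marcksl1-ps4, a name chosen after its value was seen, had 19 reads where Marcksl1 had 5078. Of 60 -ps names whose sequence could be searched, 12 shared 50% or more of their words with another gene, against 65 of 1720 lncRNA names. Rplp2-ps1, Pisd-ps1, Gpx2-ps1 and Hmga2-ps1 were not among those searched. How reads that align to several places were counted is not stated in the labels.

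Nuclear and chromatin lncRNAs were listed for their known roles. For 23 listed symbols 20 names were found, with a median RPKM of 0.646. Of these, 19 had a read (all genes 69.0%), 15 had 10 or more (all genes 48.7%) and 9 reached an RPKM of 1 (all genes 31.0%). After Malat1 and Neat1 came Dleu2, host of the miR-15a and miR-16-1 hairpins, at an RPKM of 14.6 (13.2 to 16.1), the Polycomb-linked Tug1 at 3.60, Pvt1, the neighbour of Myc, at 2.37 and the X-linked Ftx at 1.39. The growth-linked imprinted H19 stood at 1.39, the imprinted antisense Airn at 1.27 and 1700020I14Rik (Oip5os1) at 1.17. Xist, which coats the inactive X chromosome, had 9 reads (RPKM 0.0434) and its antisense partner Tsix 12 (0.220). The pair overlap, so their reads cannot be told apart. Rmst had no read.

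Small nucleolar RNA host genes were the listed group with the highest median RPKM, 2.62. By reads their median was 31.5, below the 36 of the nuclear and chromatin list. RPKM divides by transcript length, although what was counted is a tag near the 3′ end. For 28 listed symbols 20 names were found. Of these, 19 had a read (all genes 69.0%), 16 had 10 or more (all genes 48.7%) and 13 reached an RPKM of 1 (all genes 31.0%). Snhg1 led with 725 reads and an RPKM of 93.9 (87.2 to 101), close to that of Malat1 on this scale per length. Snhg3 had 27.9 (24.04 to 32.2), Gas5, a host gene that is spliced and decays with translation, 11.1 (10.1 to 12.1), Gm11974 (Snhg15) 10.8 and 2410004N09Rik (Epb41l4aos) 10.1. The intervals of Snhg1 and Snhg3 do not overlap, while those of Gas5, Gm11974 and 2410004N09Rik do. They cover counting error only, and no difference between these genes was tested. 1810032O08Rik (Snhg16) had no read.

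For the 20 symbols of the immune lncRNA list 7 names were found. These 7 had a read (all genes 69.0%), and 3 had 10 or more (all genes 48.7%). Gm14005, now Morrbid, had 334 reads and an RPKM of 32.6 (29.2 to 36.3) in its row with the most reads, NR_028591, and 104 and 49 reads in its 2 other rows. It overlaps no coding row, and Bcl2l11, which encodes the pro-death protein BIM, lies beyond its far end on the same chromosome with 772 reads. Gm14023 had 174 reads and an RPKM of 5.89 (5.05 to 6.83). Il1a, which had 6258 reads, overlaps 78.6% of the span of Gm14023 on the opposite strand, so reads of the pair cannot be told apart. Gm14023 starts head to head with Ckap2l, which had 108. Nron, which holds the factor NFAT in the cytoplasm, had 22 reads, Gm9199 4, and 7530420F21Rik (Ptgs2os), Gm10485 (Dnmt3aos) and Gm16197 (Trp53cor1) 2 each. RefSeq types Gm9199 as a transcribed pseudogene. Nron lies wholly inside Mvb12b (663 reads) and Gm10485 wholly inside Dnmt3a (667 reads), both on the opposite strand. Reads of these overlapping genes may be counted together.

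Structural and catalytic RNAs, most of which carry no poly(A) tail, had few reads apart from Rn45s. For 16 listed symbols 9 names were found, and 5 had a read (all genes 69.0%). They were Rn45s with 726, the vault RNA Vaultrc5 with 12 and the dendritic Bc1 with 7. The RNA of RNase MRP, Rmrp, had 3 and that of RNase P, Rpph1, had 1. Per length 3 of them reached an RPKM of 1 (all genes 31.0%), which are Rn45s at 6.25, Bc1 at 2.45 (0.983 to 5.04) and Vaultrc5 at 2.14 (1.10 to 3.73). All 3 lie above the median of 0.207 over members with a read. The Bc1 row runs from 79697305 to 80369637 on chromosome 10. It crosses many coding genes on both strands, with up to 4982 reads, which may be counted with its own. A second Bc1 row on X had 0 reads. Those without a read were the telomerase RNA Terc, Rprl1, Rprl2 and Rprl3.

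**Figure D3:**
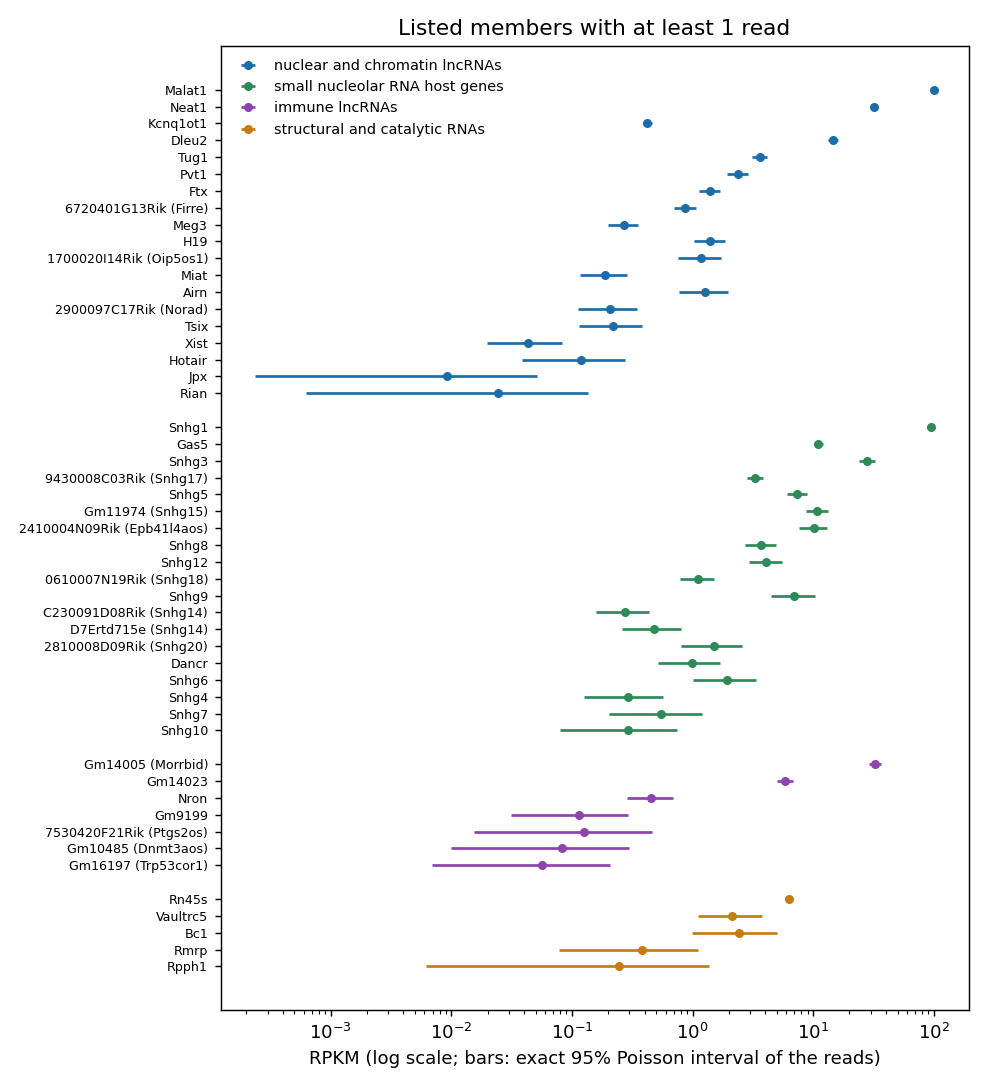
RPKM (x axis, log scale; bars are exact 95% Poisson intervals of the reads) of listed members with at least 1 read, in 4 groups by color. Within the nuclear group values run from 99.6 for Malat1 to 0.00927 for Jpx, and the small nucleolar RNA host genes are led by Snhg1 at 93.9.

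Members were placed by their position relative to coding rows. Of the 2104 names, 95 overlap a coding row on the same strand, 550 overlap one on the opposite strand only, 216 have neither overlap but start within 1000 bases of a coding start that points the other way (head to head), and 1243 do none of these. A read was present for 66.7% of the head to head class, 54.0% of opposite strand overlaps, 53.7% of same strand overlaps and 43.8% of the rest. Names that overlap a coding row held 56.6% of the member reads, most of them in LOC100503496, Rplp2-ps1, 6530402F18Rik and 4933416M07Rik. In the narrower view of the last 500 bases, 41 names lay on a coding exon of the same strand and held 10.3% of the member reads, and 124 lay on one of the opposite strand and held 26.3%. Of the 81 names with 100 reads or more, 9 overlap a coding row on the same strand and 28 on the opposite strand only. Another 14 start head to head without an overlap, and 30 do none of these.

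**Figure D4:**
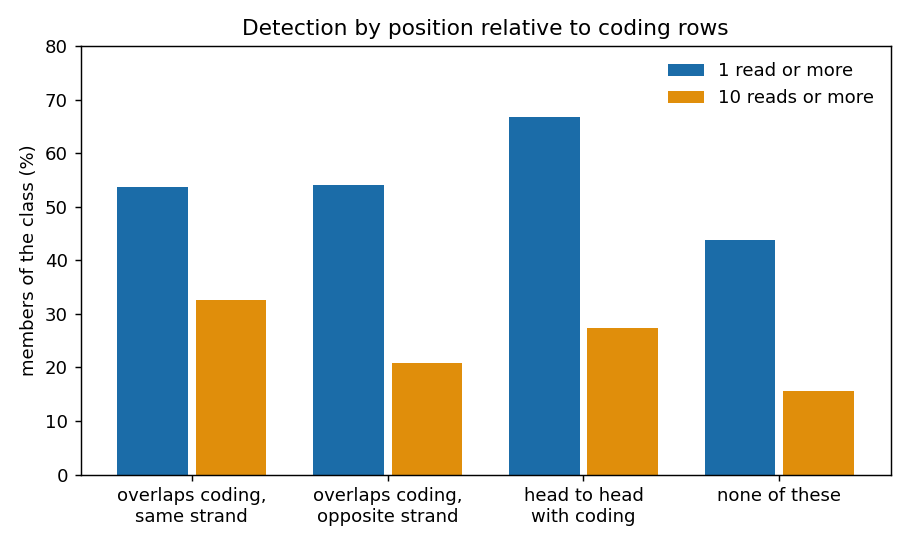
Share of names (y axis, percent) with 1 read or more and with 10 reads or more, by position relative to coding rows. For 1 read or more the head to head class is highest at 66.7% and the names with no such neighbour are lowest at 43.8%. The share over all genes is 69.0%. For 10 reads or more the same strand class is highest at 32.6%, against 48.7% over all genes.

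Coding neighbours were usually the more abundant of a pair. Among 405 names that start head to head with a coding row, overlapping or not, the coding gene had more reads in 311, with a median of 52 reads against 2 for the name. Snhg1 had 725 reads and Slc3a2, the heavy chain of amino acid transporters that starts 118 bases away, had 4215. 5031425E22Rik had 191 reads beside Kmt2e, a chromatin gene with 4251. Gm16548 had 253 and the coagulation factor gene F5, which it overlaps at the start, had 14654. The last pair of names was chosen after their values were seen.

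Where the head to head coding gene had 100 reads or more, 118 of 159 names (74.2%) had a read, and where it had under 10, 57 of 117 (48.7%). For opposite strand overlaps the shares were 115 of 168 (68.5%) and 89 of 209 (42.6%). The share over all genes was 69.0%. Across names, Spearman's rho between the reads of the name and those of the coding gene was 0.24 over 405 head to head pairs and 0.28 over 550 opposite strand pairs. The points share the same libraries, several names share a coding neighbour, and overlapping genes may share reads.

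**Figure D5:**
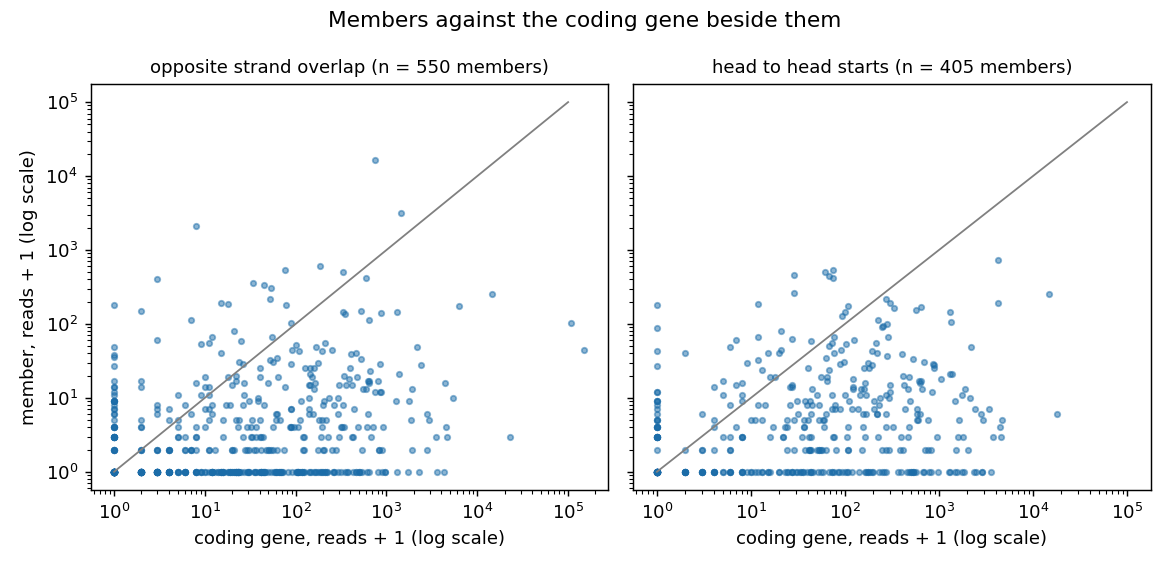
Reads + 1 of each name (y axis, log scale) against reads + 1 of the coding gene beside it (x axis, log scale), for 550 opposite strand overlaps and 405 head to head starts; the line marks equal reads. Most points lie below the line, and LOC100503496, 4933416M07Rik and F630111L10Rik stand above it in the left panel.

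Promoters of 300 bases, reaching from before the start to just after it, were available from RefSeq (GRCm38.p6) for 1358 names with a start within 10 bases of the row's. The number of CG pairs is given because CG-rich promoters are typical of genes that start in both directions. The median was 12 CG pairs for 252 names with 10 reads or more, 6 for 420 names with 1 to 9 reads and 5 for 686 names without a read, against 7 over all 32851 promoters of that length. By position, the median was 27 for 294 head to head names and 4 for the other 1064. Outside head to head starts it was 6 for names with 10 reads or more and 4 for those without a read. The motif GGCGGG, or its reverse complement CCCGCC, was in 69.4% of head to head promoters, 15.7% of the others and 35.3% of all promoters. Other motifs were searched in the same way. CCAAT was in 37.1% of head to head promoters and 38.8% of the others. AGATAA was in 3.06% and 13.0%, and TATAAA in 4.42% and 13.9%. No difference between these shares was tested.

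A head to head promoter and one with no coding gene beside it are shown, with CG pairs in capitals. Snhg1 holds 25 CG pairs and Gm14005 holds 8.
Snhg1, chr19:8723237-8723536, plus strand: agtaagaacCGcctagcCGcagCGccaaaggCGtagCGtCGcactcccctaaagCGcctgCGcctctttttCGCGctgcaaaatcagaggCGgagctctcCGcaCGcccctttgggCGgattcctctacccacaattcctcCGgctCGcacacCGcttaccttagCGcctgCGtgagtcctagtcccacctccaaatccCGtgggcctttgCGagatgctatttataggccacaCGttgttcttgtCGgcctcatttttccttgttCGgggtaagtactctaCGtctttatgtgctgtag
Gm14005, chr2:128429302-128429601, minus strand: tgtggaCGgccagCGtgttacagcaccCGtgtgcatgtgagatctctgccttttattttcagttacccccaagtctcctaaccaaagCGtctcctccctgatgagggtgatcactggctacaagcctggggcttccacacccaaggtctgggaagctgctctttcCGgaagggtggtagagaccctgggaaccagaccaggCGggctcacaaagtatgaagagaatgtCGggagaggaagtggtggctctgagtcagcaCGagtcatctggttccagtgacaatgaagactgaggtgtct

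Exon structure could be read for 1780 names. A read was present for 88 of 147 names with 1 exon (59.9%) and for 774 of 1633 spliced names (47.4%), against 69.0% of all genes. By chromosome, the share with a read ran from 37.3% of 83 names on X to 64.5% of 62 on 18, and none of 4 names on Y had a read. More than 1 row was listed for 230 names, and 118 of these had a read.

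Names with few reads showed how those reads fell over libraries. The depths of the 6 libraries, found from transcripts with a single read in all, ran from 1892486 to 4752357 reads. For 55 of 118 names with 2 reads the libraries that held them could be worked out from RPKM and length, and in 36 (65.5%) both reads came from 1 library. Among coding genes with 2 reads it was 91 of 127 (71.7%). Reads placed in proportion to depth would share a library in 19.3% of such pairs. The Poisson intervals, which take reads as independent, are therefore too narrow for names with few reads. Libraries were not worked out for names with more than 5 reads. Intervals at higher counts may also be too narrow, which was not tested. Which library came from which sample is not known.

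The sort label was set beside fixed markers. Of 27 marker symbols 24 were found under their names in the table, all with a read. The 4 eosinophil genes ran from 11 reads for the peroxidase gene Epx to 8597 for the eotaxin receptor gene Ccr3. Epithelial and goblet genes ran from 276 to 3878, fibroblast genes from 821 to 6872, macrophage genes from 65 to 2845, plasma cell genes from 34 to 1601 and globin genes from 4573 to 7032, while T and B cell genes had 1 to 41. The part of these other cell types in the reads of the noncoding names was not tested. In such bulk samples, fewer cells of a type and less RNA per cell cannot be told apart.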

How the data were processed

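Per the labels' protocols, RNA of 2 samples was extracted with Trizol and made into CEL-Seq libraries, 3 technical replicates per sample. Per the submitters' processing notes, STAR 2.4.2a, DESeq and build mm10 were used; no source used here gives the counter, the annotation release, whether strand was used or how reads with several alignments were treated. The signal column deposited by the authors is a mean read total: 100% of its values were whole after multiplication by 6, within 0.001. The RPKM column is the authors' own, per the file headers. Both are 1 value for the group, with 0 columns of other samples.

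One row per gene name, that with the most reads, was kept. Current names and types came from RefSeq (GRCm38.p6), by accession for 2035 names, symbol for 35 and synonym at the same locus for 25; 9 were not matched. GENCODE M21 transcripts were matched by accession for 1780 names. Shared sequence is the percent of 35-base words in a transcript's last 500 bases that another gene also holds. Names were taken by a rule: the 20 lncRNA and 10 -ps names with the most reads, 4 lists, and the coding rows beside them; names outside it were picked with their values in view, as stated beside them. The rule for the members and the lists were chosen with earlier results of these data known. Methods were tested on simulated data. The tools were scipy 1.17.1, pandas 2.3.3, numpy 2.4.6 and matplotlib 3.10.9 under Python 3.11.15. Alternatives were other detection minimums, all rows, RPKM, other pseudogene classes and overlap rules. The 3′ end of 1 -ps name, which holds no polyadenylation signal, and 1 neighbouring gene are not reported here.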

Additional observations from a re-analysis of the deposited data

How the results depend on the processing

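The share of names with a read, 49.3%, was 45.0% over every row of the table, 21.3% at 1 RPM or more, 19.01% at 10 reads or more and 10.1% at an RPKM of 1 or more. Leaving out structural RNAs and matching prefixes in any case gave 49.3%. The share of all reads, 1.00%, was 1.12% of summed RPKM and 0.790% without LOC100503496. The gap in detection between lncRNA and -ps names, 9.45 percentage points, ran from 2.12 at an RPKM of 1 to 8.18 with RefSeq pseudogene types in the 4 alternatives. These recount the same names and reads, so they are no separate evidence for a gap. At an RPKM of 1 the -ps share rests on 7 of 87 names, and the gap was not tested. Of the 20 lncRNA names with the most reads, 11 remained among the first 20 by RPKM and 20 when each name was taken by its row with the highest RPKM. The share of member reads in names that overlap a coding row, 56.6%, was 23.5% where the overlap had to cover 50% of the name, which drops LOC100503496 and 6530402F18Rik, and 47.7% without names that overlap a coding row of the same strand. No paired analysis was possible because there is 1 group and no column per sample, and for the same reason no sample could be left out. Amplified copies are counted as reads, since the labels name no molecular identifiers.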

Other observations

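Several further names were picked after their values were seen. H2-K2, a class I histocompatibility pseudogene, had 273 reads and an RPKM of 11.8 (10.5 to 13.3), with 2.79% of its searched words in another gene. AW112010, an interferon-inducible transcript of immune cells, had 166 reads and an RPKM of 13.9 (11.9 to 16.2). 5830416P10Rik, now Mirt1, had 221 reads and an RPKM of 2.20 (1.92 to 2.51). All 3 overlap no coding row.

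RefSeq now types 46 of the names as protein coding. A read was present for 28 (60.9%, all genes 69.0%) and 10 or more for 16 (34.8%, all genes 48.7%). The 46 names held 2.41% of the member reads. The highest were 0610012G03Rik with 442 reads, 1810058I24Rik with 375 and 2900008C10Rik with 351, the last now part of the transcriptional corepressor gene Bcor, whose own row had 21 reads.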
